A study of Homo sapiens with 8 samples.

Results

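Of the 8 RNA-seq libraries in the study, 2 stood apart from the other 6: replicate 1 of the cells flown at 1 g (space_1g) and replicate 3 of the ground cells (ground). They were picked because of their scores on the first principal component of log2(CPM + 1), where CPM is the read count of a gene scaled to the size of its library, as deposited. Over the 11394 genes with a mean of at least 5 CPM, of 16153 in the table, this component held 66.6% of the variance. The scores were 51.9 for space_1g replicate 1 and 53.3 for ground replicate 3. Replicate 1 of the cells flown in weightlessness (space_microg) had 1.32, and the remaining 5 libraries lay between -26.3 and -16.7. Because the 2 libraries were chosen on the expression values themselves, every difference from the other 6 is given as a description, with no p-value.

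All libraries came from HMEC-1, a human dermal microvascular endothelial line immortalised with the large T antigen of a tumour virus, a protein known to bind p53 and the retinoblastoma protein. Every culture grew on gelatin-coated coverslips in medium with serum, hydrocortisone and epidermal growth factor, inside automated culture units, and was fixed in a reagent that preserves RNA. The groups were weightlessness on the International Space Station (space_microg, 3 libraries), the onboard centrifuge at 1 g (space_1g, 2 libraries) and a matching facility on Earth (ground, 3 libraries). The libraries that stood apart thus carried different labels, 1 from orbit and 1 from the ground, and neither was weightless. The labels do not say whether replicates were separate cultures, and they give no batch or date of library preparation. Each library held 24248964 to 35388757 reads in the listed genes, and the 10 most abundant genes took 3.99% to 4.82% of them.

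Some of the genes that set these libraries apart belong to well-studied programmes. When cells sense foreign or misplaced nucleic acid they secrete interferons, whose receptors switch on antiviral genes through STAT and IRF factors bound at a short repeated element, the ISRE. DNA damage and other stress stabilise p53, which induces the cyclin-dependent kinase inhibitor CDKN1A; genes of mitosis are then silenced by the DREAM complex, which binds the cell cycle homology region, or CHR, of their promoters. Replication-dependent histone genes are transcribed in S phase and their messages lack a poly(A) tail, so only libraries made by depletion of ribosomal RNA, as these were, hold them in full.

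The promoter letters known to mark these programmes are shown for interferon-stimulated, mitosis and integrated stress response genes. Promoter sequences are from RefSeq on GRCh38.p14, 60 bases of the sense strand of each gene, with the matched letters in capitals. The ISRE core was searched as GAAANNGAAA on both strands, and overlapping matches run together. In ISG15 (chr1:1013365-1013424, plus strand), IFI6 (chr1:27672251-27672310, minus strand) and IFIT1 (chr10:89392495-89392554, plus strand), each stretch held 2 matches.
ISG15: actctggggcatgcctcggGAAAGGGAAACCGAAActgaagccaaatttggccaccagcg
IFI6: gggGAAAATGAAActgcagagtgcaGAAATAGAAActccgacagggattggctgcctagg
IFIT1: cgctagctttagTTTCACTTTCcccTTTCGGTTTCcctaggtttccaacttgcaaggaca
The CHR was searched as TTTGAA on both strands. It is shown for ASPM (chr1:197146750-197146809, minus strand) and HMMR (chr5:163460583-163460642, plus strand), the mitosis genes with the largest differences.
ASPM: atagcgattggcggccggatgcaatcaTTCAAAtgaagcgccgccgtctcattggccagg
HMMR: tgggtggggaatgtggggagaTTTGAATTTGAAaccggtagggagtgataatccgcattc
The composite element of ATF4 and CHOP, the factors of the integrated stress response, was searched as TGATGNAA and is shown for CHAC1 (chr15:40953236-40953295, plus strand).
CHAC1: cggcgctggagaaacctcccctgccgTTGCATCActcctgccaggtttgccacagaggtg

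Promoters of 300 bases could be matched for 6393 of the 11394 genes analysed. The ISRE core was found in 19 of 26 interferon-stimulated genes (73.1%), against 2.99% of all 6393 promoters. The CHR was found in 27 of 36 mitosis genes (75%) and in 2 of 35 DNA replication genes (5.71%), against 9.45% of all. The ATF4-CHOP element was found in 4 of 15 genes of the integrated stress response (26.7%), against 1.28% of all. Over whole directions, the ISRE core was in 10% of the promoters of genes higher in the 2 libraries, and the CHR in 27.8% of those of lower genes. A match describes these letters only, and binding was not measured.

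A gene was counted as higher or lower when both libraries lay outside the range of all 6 others and the means of log2(CPM + 1) differed by at least 1. By this rule 675 genes were higher, which is 5.92% of those analysed, and 438 were lower, which is 3.84%. The median difference over all genes was 0.02. At the edge of the rule, NCR3LG1 was counted at 1.0006 and the cell cycle repressor E2F7 was not at 0.9999; RPS3A was counted at -1.0006 and CEP97 was not at -0.9987. Of these genes 161 of the 675 higher and 98 of the 438 lower were members of any of the 33 gene lists used, so most belong to no programme described here. Each list below is described against those shares and that median. Some genes, such as CDKN1A, GDF15, ATF3 and DDX58, stand in more than 1 list, so the lists are not independent of each other. Since the rule used the same values, nothing is read from a count beyond what it says.

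The difference was also seen with flight and ground kept apart. In space_1g, replicate 1 was higher than replicate 2 by at least 1 in 763 genes (6.7%) and lower in 542 (4.76%). On the ground, replicate 3 was higher than the mean of replicates 1 and 2 in 833 genes (7.31%) and lower in 588 (5.16%). Genes counted higher in both numbered 531, which is 69.6% of the flight genes and 63.7% of the ground genes. Lower in both were 269, or 49.6% and 45.7%. Across the 11394 genes the flight and ground differences had a Pearson correlation of 0.80 and a Spearman correlation of 0.73. No library entered both differences, but both were chosen on the same component, and genes are not independent replicates.

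**Figure D1:**
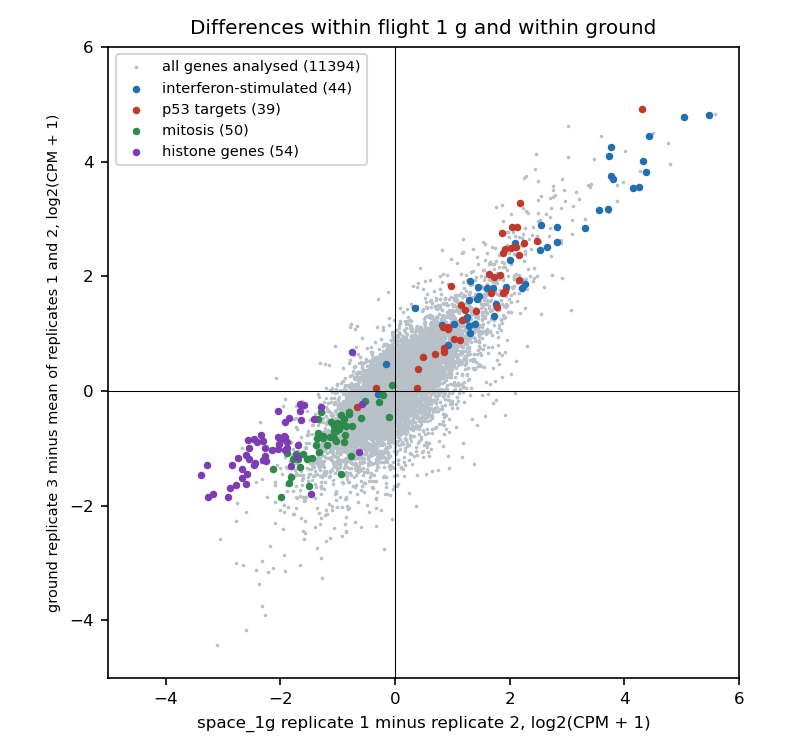
Each point is 1 gene. The horizontal axis is space_1g replicate 1 minus replicate 2 and the vertical axis ground replicate 3 minus the mean of replicates 1 and 2, both on log2(CPM + 1). Interferon-stimulated genes and p53 targets lie in the upper right, mitosis and histone genes in the lower left, and histone genes lie further from 0 on the flight axis than on the ground axis.

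GC content moved with the difference. Over 10861 genes with a known sequence, the Spearman correlation of the difference with GC content was 0.52, and with transcript length 0.01. The median GC content was 58.1% for higher genes, 44.1% for lower genes and 49.4% for all. GC content and length together accounted for 15.2% of the deviation of space_1g replicate 1 and 21.6% of that of ground replicate 3 from the mean library, against 60.9% for space_microg replicate 2, which was not among the 2, and 1.28% to 6.45% for the rest. With this trend removed within each library, 476 genes were counted higher and 347 lower, and all 117 counted genes with a known sequence that the naming rule picked kept their direction, at a median of 0.90 of their size. Its part in the result was not tested.

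Antiviral genes had the highest median of all lists. Of 50 interferon-stimulated genes listed, 44 were analysed: 38 were counted higher, 0 lower, and the median difference was 1.57 (1.68 with the GC trend removed). Among the effectors, MX1, a GTPase that blocks virus replication (chr21:41420304-41459214 in GENCODE v29, GRCh38), had 486 CPM in space_1g replicate 1 and 660 in ground replicate 3. The other 6 libraries ranged from 7.93 to 208 with a median of 31.8. The difference was 4.14. Its neighbour and relative MX2 (chr21:41361943-41409390) had 48.1 and 86.1 CPM, against 0.279 to 19.6 with a median of 2.21, a difference of 4.10. Both libraries were above every other library for both genes, and the highest of the others was space_microg replicate 1 each time.

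ISG15, a ubiquitin-like protein attached to other proteins, had 621 and 577 CPM against 12.3 to 163 with a median of 41.8 (difference 3.81). HERC5, the ligase that attaches it, had 60.9 CPM in both libraries against 1.96 to 14.4 with a median of 4.24 (difference 3.53). The RNA-binding protein IFIT1 had 156 and 180 CPM against 4.10 to 64.8 with a median of 15.5, a difference of 3.33. The groups did not overlap in any of these genes. OASL, a relative of the oligoadenylate synthetases, had 98.1 and 86.6 CPM against 2.55 to 18.9 with a median of 5.63 (difference 3.72). RSAD2, which encodes viperin, was below the mean of 5 CPM needed for the analysis, and had 15.7 and 16.2 CPM against 0.0398 to 3.99. IRF9 and CMPK2, also below that mean, lay above all 6 others in both libraries. GBP2, likewise below it, was lower than all 6, with 0.585 and 1.29 CPM against 1.70 to 3.44. Among the analysed members IFITM2 (-0.25) and GBP1 (0.18) were not counted.

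Some sensors and regulators of the pathway belong to the same interferon-stimulated list and were among its higher genes. The RNA sensor DDX58, or RIG-I, had 178 and 193 CPM against 20.3 to 82.1 with a median of 31.0 (difference 2.39). The related sensor IFIH1 differed by 2.32. The transcription factor IRF7, which amplifies interferon production, had 117 and 171 CPM against 14.9 to 49.3 with a median of 20.9 (difference 2.56). Of 17 analysed genes for nucleic acid and danger sensors, 4 were counted higher, DDX58 and IFIH1 again among them. The list median was 0.22, so the rest of this list lay close to all genes. The adaptor MAVS differed by -0.08, the kinase TBK1 by -0.43 and the cyclic GMP-AMP synthase MB21D1 by 0.34. The interferon gene IFNL1, below the filter, had 1.95 and 2.08 CPM against at most 0.285. Antigen presentation had 3 of 17 genes higher and a median of 0.43, with the peptide transporter TAP1 at 1.76, HLA-F at 1.10 and HLA-B at 1.08, and B2M at 0.03. With the GC trend removed HLA-F was at 0.84 and HLA-B at 0.74, below the counted size, and TAP1 at 1.52.

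Chemokines and cytokines gave a narrower picture. Of 32 listed, 21 were in the table and 9 were analysed; 4 were counted higher and 0 lower, with a median of 0.90. CCL5, a chemokine for T cells that interferon also induces (chr17:35871491-35880793), had 71.6 CPM in space_1g replicate 1 and 33.7 in ground replicate 3, against 1.04 to 9.86 with a median of 1.94. Its difference was 3.82. LIF, a cytokine of the interleukin 6 family, had 37.8 and 31.8 CPM against 3.55 to 11.7 (difference 2.33), and IL32, a cytokine induced by infection, had 14.9 and 33.6 against 4.79 to 7.58 (difference 1.87). IL6 and IL11 lay below the filter, with 7.25 and 9.72 CPM for IL6 against 1.24 to 3.82, and 15.2 and 13.7 CPM for IL11 against 0.757 to 2.76. CXCL8, the neutrophil chemokine, overlapped between the groups, with 14.2 and 24.8 CPM against 5.44 to 15.4.

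Below the filter CSF3, the growth factor of neutrophils, had 11.4 and 14.3 CPM against at most 1.40, and the cytokine IL1A had 2.41 and 4.17 against at most 1.17. Also below it, CCL20 had 2.02 and 2.15 CPM against at most 0.484. CXCL2 (3.64 and 3.10 against at most 2.57) and IL1B (3.51 and 3.62 against at most 2.82) were above all 6 others by less. IL18, below the filter as well, went the opposite way, with 0.423 and 0.123 CPM, from 13 and 4 reads, against 0.868 to 1.81. Among the analysed members the lowest difference was that of IL15 (-0.68).

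Some inflammatory genes went the opposite way or did not separate. CCL2, the monocyte chemokine, was below the filter, with 0 reads in space_1g replicate 1, which allows up to 0.0975 CPM, and 0.215 CPM in ground replicate 3, against 1.47 to 5.87 in the others. VCAM1, the adhesion molecule for lymphocytes, was also below the filter, with 0.0975 and 0.245 CPM, from 3 and 8 reads, against 0.546 to 1.95. ICAM1, the adhesion molecule for neutrophils, overlapped, with 126 and 231 CPM against 96.7 to 166 (difference 0.46). In the NF-kB pathway, 7 of 22 analysed genes were counted higher and the median was 0.86. These were the subunits RELB (2.24) and NFKB2 (1.21), the inhibitors NFKBIE (1.31) and NFKBIB (1.18), the feedback enzyme TNFAIP3 (2.24), and TRAF1 (2.16) and BIRC3 (1.86), which act at tumour necrosis factor receptors. NFKBIA (0.95), TNIP1 (0.87), TNIP2 (0.97) and CYLD (0.56), which also restrain the pathway, were below the counted size. These libraries had been described as inflamed. The values show CCL5, LIF, IL32 and, at low levels, IL6, IL11, CSF3, IL1A and CCL20 high. At low levels too, IL1B and CXCL2 were only a little above the others. CCL2, VCAM1 and IL18, all below the filter and resting on few reads in the 2 libraries, were under the others. ICAM1 and CXCL8 were not separated.

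The p53 targets were higher, with 25 of 39 analysed genes counted, 0 lower, and a median of 1.30 (1.40 with the GC trend removed). CDKN1A, or p21 (chr6:36676460-36687339), had 2315 CPM in space_1g replicate 1 and 2067 in ground replicate 3, against 348 to 880 with a median of 575. Its difference was 1.96 and the groups did not overlap. RRAD, a small GTPase of muscle and other tissues (chr16:66921679-66925644), had 119 and 110 CPM against 2.23 to 19.6 with a median of 4.62 (difference 4.14). The stress hormone GDF15 had 474 and 605 CPM against 36.8 to 201 with a median of 103 (difference 2.46), and GADD45A, a partner of repair and cell cycle proteins, had 220 and 189 against 24.1 to 81.0 (difference 2.32). Proapoptotic targets were among them, with BBC3, or PUMA, at 2.23 and the death receptor FAS at 1.90. MDM2, the ligase that degrades p53, had 2928 and 1937 CPM against 571 to 1547 (difference 1.30).

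Not every p53 target separated. The difference was 0.63 for BAX, 0.22 for ZMAT3, 0.06 for PLK2 and -0.32 for CCNG1, all below the size that was counted. Among the apoptosis genes 7 of 22 were counted higher and 0 lower, PMAIP1, or NOXA, at 1.55 among them, and the caspase CASP8 (-0.18) was not counted.

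The integrated stress response, in which ATF4 induces genes of amino acid supply, had 22 of 34 analysed genes counted higher, 0 lower, and a median of 1.26. ATF3, a repressor induced by many stresses, had 112 and 104 CPM against 6.37 to 27.1 with a median of 10.2 (difference 3.15). CHAC1, which breaks down glutathione, had 53.6 and 78.4 CPM against 6.45 to 22.2 with a median of 14.2 (difference 2.24), and TRIB3, a pseudokinase that restrains the response, differed by 2.25. The asparagine synthetase ASNS (1.66), the serine synthesis enzyme PHGDH (1.26) and the transfer RNA synthetases SARS (1.44), WARS (1.39) and GARS (1.26) were also higher. By contrast, 2 of 24 chaperones and regulators of the endoplasmic reticulum were counted, ERN1 (1.60) and XBP1 (1.28), and the list median was 0.07. Cytosolic heat shock genes had a median of 0.22 with 4 of 25 higher and 1 lower. The small heat shock protein CRYAB was the largest of them, with 263 and 287 CPM against 15.99 to 48.1 with a median of 22.7 (difference 3.47). Immediate early genes had 12 of 27 higher, led by the nuclear receptor NR4A1 with 66.2 and 53.6 CPM against 2.99 to 9.80 (difference 3.36), and 1 lower, CTGF (-1.60). FOS (0.64) and EGR1 (-0.26) were not counted.

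**Figure D2:**
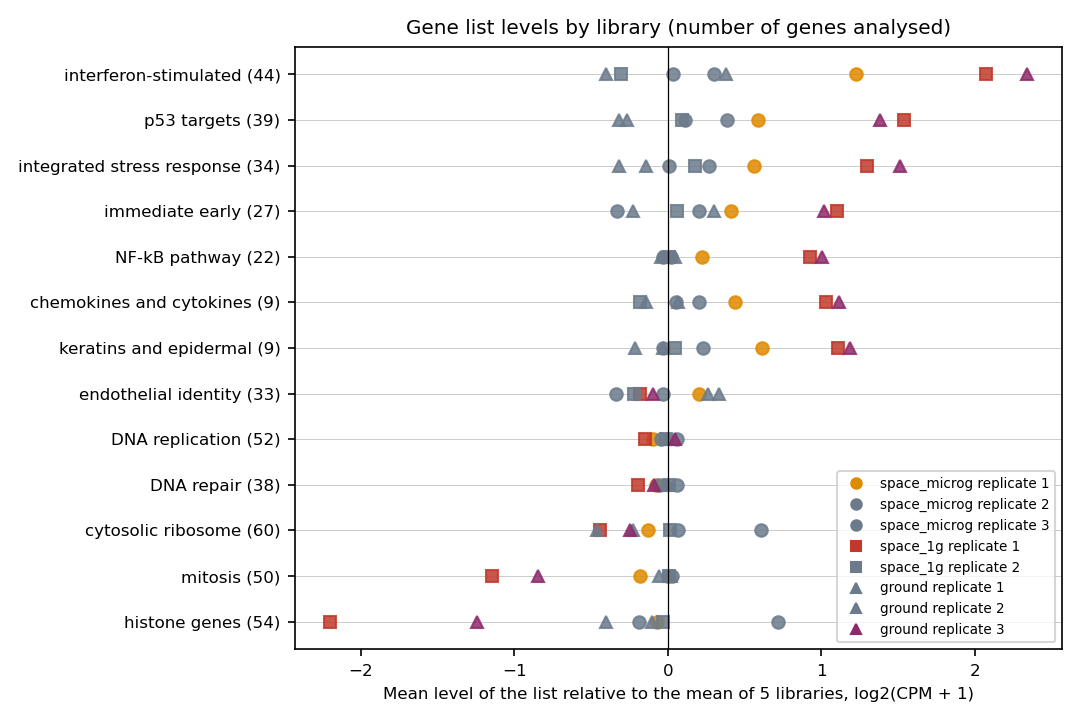
Mean level of each gene list in each of the 8 libraries, in log2(CPM + 1) relative to the mean of the 5 libraries other than space_1g replicate 1, ground replicate 3 and space_microg replicate 1. The interferon list lay at 2.07 in space_1g replicate 1, 2.34 in ground replicate 3 and 1.23 in space_microg replicate 1, against -0.41 to 0.38 in the other 5, while DNA replication lay between -0.15 and 0.06 in all 8.

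Genes of mitosis were lower. All 50 listed genes were analysed, 21 were counted lower and 0 higher, and the median difference was -0.94 (-0.78 with the GC trend removed). Without the size threshold, 47 of the 50 lay below all 6 other libraries in both, against 24.4% of all genes analysed. ASPM, a spindle pole protein, had 161 CPM in space_1g replicate 1 and 163 in ground replicate 3, against 473 to 643 with a median of 602 (difference -1.84). HMMR, a spindle assembly factor, had 30.9 and 49.8 CPM against 112 to 150 with a median of 142 (difference -1.75). Cyclin B1, CCNB1, had 70.7 and 112 CPM against 207 to 261 with a median of 239 (difference -1.40), and the kinase PLK1 had 32.2 and 46.7 against 79.8 to 113 (difference -1.36). None of these genes overlapped between the groups. The transcripts were reduced but present: MKI67, the proliferation marker, had 483 and 379 CPM against 655 to 1090. PTTG1, the securin that holds sister chromatids together, differed by -0.02, with 122 CPM in both libraries against 106 to 149.

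Genes of DNA replication did not share this difference. Of 52 analysed genes 0 were counted in either direction, the median was 0.01, and 26 were above 0 and 26 below. The highest member was the transcription factor E2F2 (0.73). The replicative helicase subunit MCM5 had 216 and 278 CPM against 209 to 277, and the sliding clamp PCNA had 397 and 426 against 278 to 432. Both overlapped. In DNA repair 0 of 38 genes were counted and the median was -0.13, with BRCA1 at 197 and 216 CPM against 145 to 204.

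Histone genes of the replication-dependent clusters had the lowest median of all lists. Of 54 analysed, 49 were counted lower, 0 higher, and the median was -1.72 (-1.86 with the GC trend removed). HIST1H1B, a linker histone, had 65.1 and 125 CPM against 405 to 872 with a median of 476 (difference -2.55), and HIST1H3J, a copy of histone H3, had 8.68 and 23.4 against 69.2 to 137 (difference -2.52). Space_1g replicate 1 was lower than ground replicate 3: relative to the mean of the 5 libraries the list lay at -2.20 in the former and -1.24 in the latter. Within space_1g the median difference was -2.19, and within ground it was -1.003. Histone copies are nearly identical in sequence, so single members are uncertain. Of the 65 lower genes placed on chromosome 6, 44 were histone genes, and the 46 analysed histone genes of that chromosome span chr6:26020490-27893843. DNA replication genes at their usual level and histone messages well below it were thus found in the same libraries. Fewer cells in a phase and less RNA per cell cannot be told apart in such bulk samples.

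**Figure D3:**
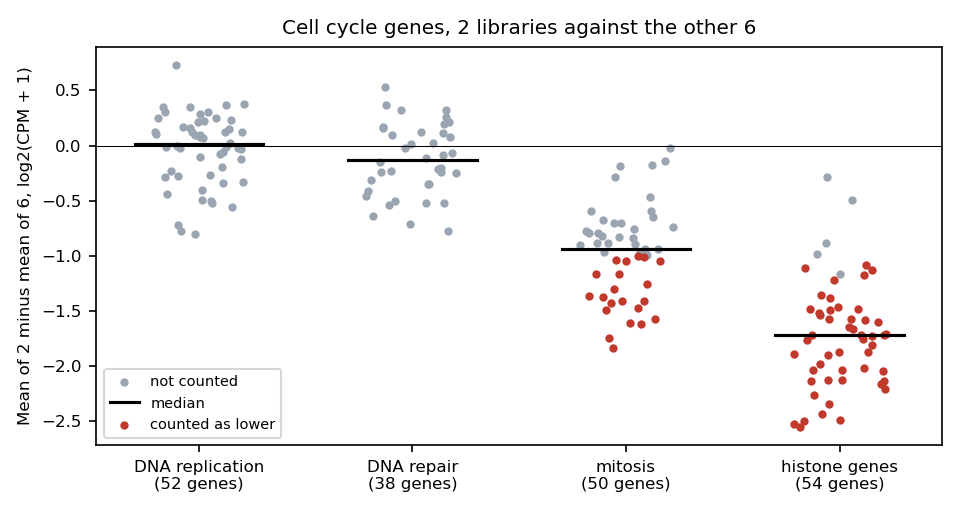
Difference between the mean of the 2 libraries and the mean of the other 6 on log2(CPM + 1) for each analysed gene of 4 lists; each point is a gene, red points were counted as lower, and the bar is the list median. Replication and repair genes surround 0 (medians 0.01 and -0.13), mitosis genes lie below it (median -0.94) and histone genes lie lowest (median -1.72).

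Among the brakes of the cell cycle the direction differed between genes. CDKN1A (1.96), the antiproliferative BTG2 (1.63) and CDKN2B (1.05) were higher. Cyclin D1, CCND1, which was listed with them but drives entry into S phase, was at 1.42, and just under the counted size with the GC trend removed. CDKN1B, or p27, was lower, with 36.9 and 42.9 CPM against 80.8 to 118 (difference -1.21), as was CDKN2C, or p18 (-1.65). CDKN2A, the locus of p16, had 82.0 and 85.4 CPM against 39.2 to 150, and overlapped. Of 21 analysed genes linked to senescence, the lasting arrest of damaged cells, 9 were higher and 3 lower. The nuclear lamina gene LMNB1, whose loss is a known mark of that state, had 72.8 and 87.8 CPM against 163 to 215 (difference -1.20), and HMGB2 differed by -1.18. The libraries had also been described as arrested; division itself was not measured, and the lower levels covered mitosis and histone genes but not the replication list.

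Several epithelial genes were high in these endothelial libraries. COL7A1, the anchoring fibril collagen below the epidermis (chr3:48564073-48595267), had 537 and 346 CPM against 13.4 to 100 with a median of 22.5, a difference of 3.96. Filaggrin, FLG, which bundles keratin in the outer skin (chr1:152302175-152325203), had 55.7 and 32.5 CPM against 0.239 to 7.32 with a median of 1.03 (difference 4.21). Keratin 7, KRT7, a filament of simple epithelia (chr12:52232520-52252186), had 369 and 428 CPM against 77.8 to 215 with a median of 88.4 (difference 1.92). COL17A1, a hemidesmosome collagen (3.52), the desmosome protein PKP1 (2.23) and the cell adhesion protein NECTIN4 (3.62) were higher as well. None overlapped, and each was highest among the others in space_microg replicate 1.

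The epidermal list as a whole was thinly covered. Of 46 genes listed 19 were in the table and 9 were analysed, with 4 higher, 0 lower and a median of 0.52, while KRT8 (0.52) and KRT18 (0.00) of simple epithelia were not counted. Of the 4 epidermal markers FLG and IVL were in the table, and KRT5 and KRT14 were not. FLG and IVL had a sum of 34.0 to 57.1 CPM in the 2 libraries against 0.518 to 7.75 in the others. FLG, described above, made up nearly all of the sum in the 2 libraries, so the sum adds little to it. IVL, below the filter, had 1.33 and 1.44 CPM against 0.0292 to 0.427. The 6 endothelial markers summed to 1036 to 1169 CPM in the 2 libraries and to 901 to 1562 in the others, so the sums stayed high and overlapped. Taken singly, ERG did not overlap, with 65.8 and 52.4 CPM against 84.9 to 133. Markers of fibroblasts and smooth muscle (2 of 6 in the table) summed to 28.8 to 35.0 CPM against 37.4 to 46.9, with PDGFRB lower (-1.33) and ACTA2 at 0.58. The longer list of these cells, with 14 of 24 genes in the table, summed to 570 to 725 CPM against 388 to 634. The leukocyte marker CD14 (1 of 4 in the table) had 1.04 CPM in both against 1.53 to 2.88. The longer leukocyte list, with 2 of 20 in the table, also held ITGAX, an integrin of myeloid cells, at 7.31 and 5.95 CPM against 0.765 to 1.67. What part other cells had in the result was not tested.

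Endothelial genes changed in both directions. Of 33 identity genes 3 were counted higher and 5 lower, with a median of 0.10, which was 0.28 within space_1g and -0.09 within ground. Among those lower, the sialomucin EMCN (chr4:100395341-100880126) had 1.04 and 1.20 CPM against 12.5 to 21.5 with a median of 13.97 (difference -2.96). MMRN1, which binds coagulation factor V (chr4:89879532-89954629), had 0.488 and 0.123 CPM, from 15 and 4 reads, against 7.79 to 29.6 with a median of 11.2 (difference -3.33). CLEC14A, a lectin of vessel sprouting, differed by -2.05 and the sialomucin CD34 by -1.81. Nitric oxide synthase NOS3 had 91.2 and 101 CPM against 19.8 to 66.0 (difference 1.37) and the VEGF receptor FLT1 had 67.2 and 93.7 against 18.4 to 46.6 (difference 1.33). PECAM1 (-0.30), CDH5 (-0.24), KDR (0.38), TEK (0.37) and VWF (-0.07) were not counted, and the transcription factor ERG was at -0.79 with 65.8 and 52.4 CPM against 84.9 to 133.

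Outside the lists, LINC01629, a long noncoding RNA, had the largest difference of all, with 70.4 and 44.2 CPM against 0.398 to 7.32 (difference 4.68). NIPAL4, a magnesium transporter of the skin (3.97), and the transcription factor SOX8 (3.56) were also among the 15 largest. The lower side was led by CLEC3B, or tetranectin, with 0.975 and 0.705 CPM against 8.43 to 36.2 (difference -3.45), followed after MMRN1 by the zinc finger factor ZNF521 (-3.05). KCTD12, an auxiliary subunit of GABA-B receptors (chr13:76880166-76886390), was abundant and had 153 and 130 CPM against 890 to 1241 with a median of 950 (difference -2.83). The leptin receptor LEPR (-2.65), the axon guidance receptor ROBO1 (-2.53) and the kinase PDK4 (-2.49), which restrains pyruvate oxidation, were also among the 15 lowest.

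**Figure D4:**
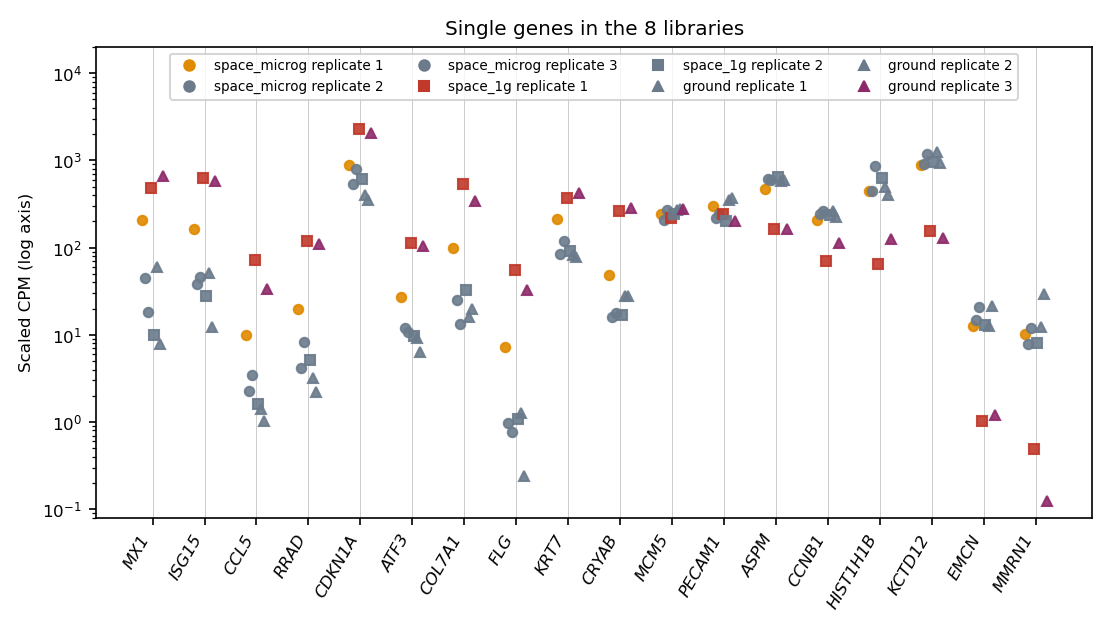
Scaled CPM of 18 genes in each of the 8 libraries on a log axis, with space_1g replicate 1 in red, ground replicate 3 in purple, space_microg replicate 1 in orange and the other 5 in grey. In MX1 the orange point (208 CPM) stands between the red and purple points (486 and 660) and the grey ones (7.93 to 60.1), whereas in KCTD12 it stands with the grey ones.

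Further programmes had medians nearer to that of all genes. Nuclear genes of oxidative phosphorylation had 0 of 37 counted and a median of -0.12, which was -0.25 within space_1g and 0.20 within ground, and lysosome and autophagy genes 0 of 34 and 0.25. Cholesterol synthesis had 0 higher and 1 lower of 24 (median -0.09). Targets of NRF2, which answers oxidants, had 2 higher and 1 lower of 34 with a median of -0.04; the heme-degrading enzyme HMOX1 was at 1.69 and catalase, CAT, at -1.10. Extracellular matrix genes had 5 higher and 6 lower of 41 and a median of 0.00, shares above those of all genes in both directions, with COL1A2 (-1.69) and thrombospondin THBS1 (-1.69) lowest. Genes of the cytosolic ribosome had 1 of 60 counted, RPL31 (-1.19), and a median of -0.31, with 54 below 0; the median was -0.46 within space_1g and 0.08 within ground, and near-identical copies leave them uncertain.

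The 2 libraries also differed from each other. The difference space_1g replicate 1 minus ground replicate 3 had an SD of 0.317 over genes, and 118 genes reached a size of 1, against an SD of 0.656 for the difference between the 2 libraries and the other 6. By the largest gap above all 7 others, CCL5 and the growth factor AREG (63.5 CPM against 29.2 in ground replicate 3) were among the 5 leading genes of space_1g replicate 1. SOX8 (53.7 CPM against 23.3 in space_1g replicate 1), IL32, the interferon-induced LGALS3BP (380 against 156) and the collagenase MMP1 (102 against 50.3) were among the 5 of ground replicate 3.

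Space_microg replicate 1 lay between the groups. Its position was measured per gene on log2(CPM + 1), with 0 for the mean of the other 5 libraries and 1 for the mean of the 2, and the genes were counted again without it, giving 758 higher (6.65%) and 479 lower (4.2%). The median position was 0.35 for higher genes (quartiles 0.27 and 0.45) and 0.18 for lower genes (quartiles 0.08 and 0.27). On unlogged CPM the medians were 0.22 and 0.26, so the order of the directions differed between the scales. Each of the other 5 libraries, placed by the same rule, had a median between -0.15 and 0.02. The 5 libraries that set their 0 included space_microg replicate 1. Space_microg replicate 1 lay beyond the 5 on the side of the 2 libraries in 588 of the 758 higher genes (77.6%) and in 213 of the 479 lower genes (44.5%). The other 5 libraries lay beyond their own 5 on that side in 1.75% to 12.1% of higher genes and 8.80% to 20.0% of lower genes. Their 5 included space_microg replicate 1, often the most extreme, which keeps these shares low by construction. The shares are therefore not a like-for-like comparison.

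**Figure D5:**
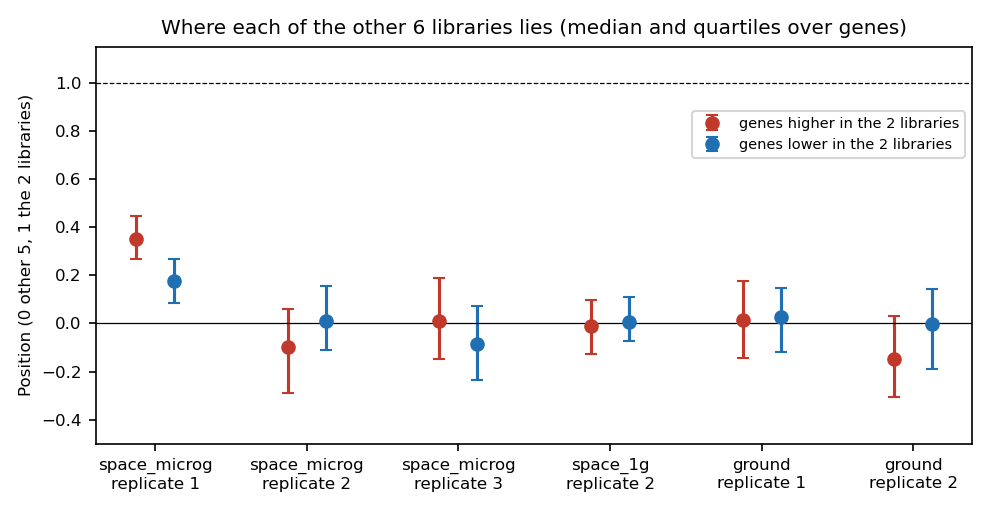
Position of each of the other 6 libraries on a scale from 0 (mean of the remaining 5) to 1 (mean of space_1g replicate 1 and ground replicate 3), as median and quartiles over genes, with the genes counted again without that library. Space_microg replicate 1 has medians of 0.35 and 0.18, and the other 5 lie between -0.15 and 0.02. For those other libraries the remaining 5 include space_microg replicate 1.

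The position differed between programmes on the log2 scale. Over the members counted without this library, the median position was 0.53 for interferon-stimulated genes. It was 0.43 for endothelial activation, 0.38 for senescence-associated genes, 0.38 for keratins and epidermal genes and 0.28 for chemokines and cytokines. List means gave another order. From them, the position was 0.76 for senescence-associated genes and 0.65 for endothelial activation, lists whose members went in both directions and so cancel in a mean. It was 0.56 for interferon-stimulated genes, 0.54 for keratins and epidermal genes, 0.46 for nucleic acid sensors, 0.41 for chemokines and cytokines, 0.40 for p53 targets and for the integrated stress response, 0.39 for immediate early genes, 0.37 for antigen presentation, 0.28 for apoptosis, 0.23 for the NF-kB pathway, 0.19 for nuclear and long noncoding RNA, 0.18 for mitosis and 0.04 for histone genes. MX1, with 208 CPM in this library, was at 0.69 and IFI6 at 0.68, while IL32, with 5.04 CPM, was at -0.06 and the GTPase GEM at 0.06. Among lower genes ZNF521 was at -0.07, KCTD12 at 0.08 and HIST1H3J at 0.09. The receptor PLXNA4 was the 1 higher gene to pass the level of the 2 libraries, at 1.10, with 79.3 CPM against 82.5 and 65.7. In this library the interferon list stood well above the other 5 libraries and the histone list within their range, which ran from -0.40 to 0.72. Endothelial activation (0.345, highest of the 5 0.393) and antigen presentation (0.199, highest 0.292) also lay within the range of the 5. So did apoptosis (0.171, highest 0.177) and nuclear and long noncoding RNA (0.115, highest 0.526). For these lists the position does not set this library apart from the 5.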

How the data were processed

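Total RNA was depleted of ribosomal RNA and made into libraries with a stranded kit, per the labels' protocols. The deposited values are a normalised signal per gene, which the authors call CPM per the labels. The submitters' processing notes list STAR 2.5.3, featureCounts, edgeR, FastQC and CASAVA 1.8.2, and as builds hg38 and GRCh38, without giving roles; strand setting and annotation are not given in the sources used here. Every value was a whole multiple of the value of 1 read (0.0285 to 0.0398 CPM, tolerance 1e-06 read), giving 24248964 to 35388757 reads per library. Because of the authors' scaling, the columns do not share 1 total.

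Values were used as log2(CPM + 1), which understates differences of low genes, for genes with a mean of at least 5 CPM. Python 3.11.15 with pandas 2.3.3 and scipy 1.17.1 was used. The 2 libraries, the markers and the 33 gene lists were chosen with earlier results of these data known. Genes were named by rule: the 15 largest differences per direction, up to 4 counted members per list, the markers, 5 genes per library above all others, and 8 per direction at either end of the position scale; further list members were named after their values were seen. Positions are from GENCODE 29, which held 10861 of the 11394 symbols; promoters are from RefSeq. Counting rules were tested on simulated data. Alternatives were pseudocounts, filters, scalings, thresholds, a GC and length correction, single groups and each library left out. An upper limit for 0 reads is 3 reads and covers counting error only.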

Additional observations from a re-analysis of the deposited data

Results flagged for a closer look

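Only 2 genes differed by at least 1 on log2(CPM + 1) in opposite directions within flight and within ground. RP11-197N18.8 was higher in space_1g replicate 1 than in replicate 2 by 1.38 (7.87 against 2.42 CPM), and in ground replicate 3 it was below the mean of replicates 1 and 2 with a difference of -1.27 (2.73 against 8.63 and 7.41 CPM). CEP295NL had a flight difference of 1.17 (10.8 against 4.27 CPM) and a ground difference of -1.15 (6.10 against 12.9 and 16.9 CPM). Both had been picked out by this sign rule among 11394 genes, and the contrast between flight and ground was not tested.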

How the results depend on the processing

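None of the counted genes that the naming rule picked changed direction under the alternatives run; genes named after their values were seen were not recomputed. Among the medians of the 8 lists compared under each alternative, DNA replication and endothelial identity, both near 0, changed sign under some. The 675 higher and 438 lower genes became 1053 higher without a filter, 442 and 284 when genes needed 20 CPM on average, 137 and 43 with a difference of at least 2, and 2931 and 2779 with no size threshold. With the GC trend removed the medians were -0.78 for mitosis and -0.10 for DNA replication, which was -0.051 with plain totals. With space_1g libraries only they were -1.09 for mitosis, -0.075 for replication, 2.16 for interferon-stimulated genes, 1.31 for chemokines and -2.19 for histone genes; with ground libraries only, 1.70 for p53 targets, -0.80 for mitosis, 0.12 for replication, 1.45 for chemokines, 1.40 for keratins and epidermal genes and -1.003 for histone genes. With at least 20 CPM chemokines had 0.34 and keratins 1.21, from fewer genes; keratins had 0.86 with median of ratios. The cause of the others was not tested.

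Leaving out each library in turn gave 639 to 760 higher and 425 to 528 lower genes. The medians ranged over 1.13 to 1.5 for p53 targets, -1.11 to -0.79 for mitosis, -0.059 to 0.16 for DNA replication, 1.53 to 1.84 for interferon-stimulated genes, 0.52 to 1.22 for chemokines, 0.037 to 0.18 for endothelial identity, 0.37 to 0.90 for keratins and -2.21 to -1.22 for histone genes. The position of space_microg replicate 1 ranged over 0.33 to 0.37 for higher and 0.16 to 0.19 for lower genes. Of 2718 further values for single genes and lists, 2497 moved by less than the SD over all libraries outside the 2. That SD pools the labelled groups and includes space_microg replicate 1, so it is not a spread between replicates of the same group. No paired analysis was possible because the 2 libraries carry different replicate numbers and the differences come from no test. Depth limits the lowest genes only, as in MMRN1 with 4 reads in ground replicate 3.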

Other observations

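Further gene groups outside the report's account were described the same way. Of 16 Notch genes, which pattern vessels, 4 were counted higher and 0 lower, with a median of 0.23. That median was 0.07 within space_1g, 0.08 within ground and 0.01 with the GC trend removed, where LFNG (0.88) and HES4 (0.71) were below the counted size. The receptor NOTCH3 had 127 CPM in space_1g replicate 1 and 134 in ground replicate 3, against 23.3 to 59.5 in the other 6 libraries, and the ligand JAG2 had 99.1 and 101 against 17.0 to 42.6. Of 14 genes of endothelial activation and adhesion, 5 were higher and 2 lower. The anticoagulant receptor THBD had 217 and 197 CPM against 37.6 to 119, and the vasoconstrictor EDN1 had 11.1 and 18.9 against 24.2 to 58.4. Among 22 targets of TGF-beta, 5 were higher and 2 lower, led by the transcription factor SNAI2 with 33.0 and 24.0 CPM against 2.91 to 7.04.

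Glycolysis and hypoxia genes had 4 of 32 higher and 2 lower, with a median of -0.04. VEGFA, the growth factor of vessels, had 71.0 and 89.3 CPM against 17.3 to 32.0, while the aldolase ALDOC had 6.89 and 7.32 against 14.5 to 38.4. Among 10 markers of fibroblasts and smooth muscle 1 was higher and 3 lower; the surface protein THY1 had 3.54 and 3.71 CPM against 5.21 to 28.1.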
